A study of Mus musculus with 16 samples.

Results

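The epidermis and the fibroblasts of the dermis beneath it were compared in mouse skin at embryonic day 14.5, gene by gene. The comparison used 2 sorted fractions, Epi and Fb, with 2 libraries each, out of 16 libraries of 8 fractions. A gene entered the comparison when it had an FPKM (fragments scaled to transcript length and to library size) of at least 1 in 2 or more of these 4 libraries. That rule took 12573 of the 23235 rows of the expression table. Of them, 10106 reached 1 FPKM in all 4 libraries, 689 did so in both Epi libraries and neither Fb library, 908 in both Fb libraries and neither Epi library, and 870 in other combinations. The labels give Epi and Fb as short names only, read here as epidermis and dermal fibroblasts. Cells were sorted by fluorescence, and the labels give neither a strain, a genotype, a transgene nor the markers of the sort, so a gene used for sorting would be no finding. Pc and DC, read as placode and dermal condensate, the epithelial and the mesenchymal part of the hair follicle primordium, served as a further pair from the same skin.

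Embryonic epidermis is a sheet of keratinocytes. Its cells are held to each other by desmosomes, tight junctions and E-cadherin, and to the basement membrane by hemidesmosomes, and the transcription factor p63 is required for the tissue to form. Dermal fibroblasts descend from mesenchyme, lie singly in a matrix of fibrillar collagen and proteoglycan that they secrete, and carry the PDGF receptor alpha. The layers exchange secreted signals in both directions (WNT, FGF, PDGF, BMP, ectodysplasin and others), and this exchange patterns the hair follicles.

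The labels of both fractions were met by their markers. Krt5, the basal keratin of stratified epithelia (mm10, chr15:101707070-101712891), had 1355 and 1103.7 FPKM in the Epi libraries and 25.1 and 13.1 in the Fb libraries. Trp63, which encodes p63 (chr16:25683765-25892088), had 265 and 235 FPKM in Epi and 4.36 and 4.0 in Fb. Cdh1, which encodes E-cadherin (chr8:106603368-106670246), had 252 and 241 FPKM in Epi and 3.97 and 3.24 in Fb. All of these were high in both Epi libraries, low in both Fb libraries, and did not overlap between the groups. Col1a2, a chain of type I collagen (chr6:4505697-4541543), had 20.7 and 22.2 FPKM in Epi and 1963.1 and 1427.8 in Fb. Dcn, which encodes the collagen-binding proteoglycan decorin (chr10:97479500-97518162), had 124 and 133 FPKM in Epi and 1065.9 and 1498.4 in Fb. Both were high in the Fb libraries, but Dcn kept a clear level in Epi. Differences below are of means on the log2(FPKM + 1) scale, Epi minus Fb, with a positive value where Epi was higher; the pseudocount makes them smaller than the true fold for genes of low FPKM. On it, Krt5 differed by 5.99 (SE 0.655, limma adjusted p = 2.03e-05), Trp63 by 5.6 (SE 0.385, adjusted p = 6.3e-07) and Cdh1 by 5.75 (SE 0.448, adjusted p = 1.61e-06). Col1a2 differed by -6.22 (SE 0.337, adjusted p = 1.52e-07) and Dcn by -3.29 (SE 0.29, adjusted p = 3.76e-06).

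**Figure D1:**
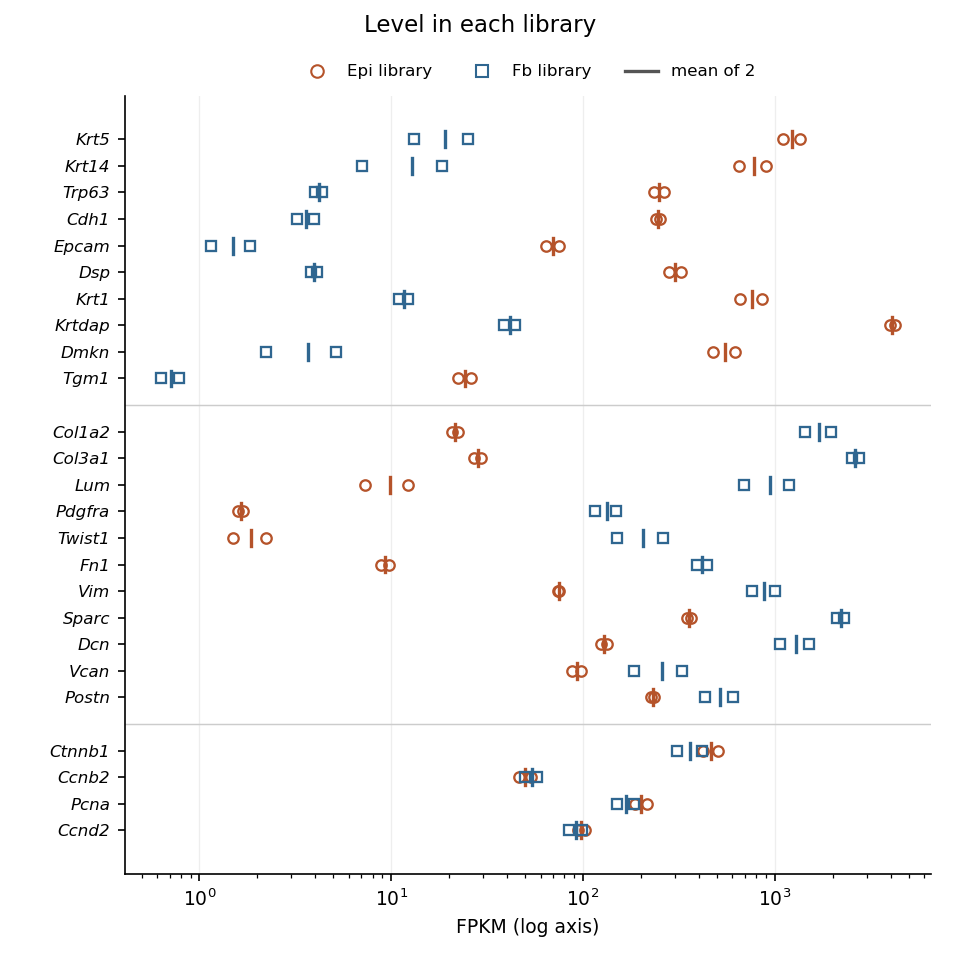
FPKM on a log axis for 25 genes in each Epi library (circles) and each Fb library (squares), with the mean of 2 as a tick: epithelial genes at the top, mesenchymal genes in the middle, and genes shared by both at the bottom. Each epithelial and mesenchymal gene is split between the groups, while mesenchymal genes such as Sparc, Dcn, Vcan and Postn have 87.6 FPKM or more in both Epi libraries.

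The depth of the libraries is not known, since the table holds FPKM and no counts. Summed FPKM was 606437.4 and 567322.1 in the Epi libraries and 494703.0 and 474500.4 in the Fb libraries, and 11551 to 11957 genes reached 1 FPKM. The Epi replicates lay closer to each other (Pearson r = 0.979) than the Fb replicates did (r = 0.939). These r values are of log2(FPKM + 1) over the 14171 rows tested. Of 12556 genes of the comparison with an unshared symbol, 1.16% in Epi and 11% in Fb differed at least 2 times in FPKM + 1. In Fb, 1163 genes were at least 2 times higher in replicate 1 and 224 in replicate 2; Col1a1, for example, had 2344.2 and 662 FPKM. Whether the replicates were separate embryos or litters is not given in the labels; the p-values reflect how far these particular libraries scatter, and that scatter may be technical. In sorted bulk samples, fewer cells of a type and less RNA per cell cannot be told apart.

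Other cell types could add to a fraction, so their markers were summed. The 10 melanocyte markers summed to 186 and 278 FPKM in Epi, 10 and 12.9 in Fb, and 7511.8 and 5976.7 in Mc, the fraction read as melanocytes. All 10 were called higher in Epi than in Fb and none was at 0 in Epi. The calls of Kit, Mitf and Sox10 were lost in 6, 3 and 2 of 11 alternative settings. Dct, an enzyme of pigment synthesis, had 92.8 and 132 FPKM in Epi and 2.3 and 2.86 in Fb. The 7 mural cell markers summed to 18.8 and 17.9 FPKM in Epi and 84.5 and 96.3 in Fb, and 5 of the 6 expressed ones were higher in Fb. Sums of the 10 endothelial markers overlapped between the groups (21.2 and 17.2 in Epi, 17.5 and 29.2 in Fb), as did the 8 erythroid markers (174 and 273, 115 and 334). The 12 macrophage and leukocyte markers summed to 12.4 and 19.6 in Epi and 6.53 and 7.91 in Fb, and the 9 skeletal muscle markers to 5.33 and 13 in Epi and 39.2 and 63.7 in Fb. The 8 keratinocyte markers summed to 60.5 and 34.1 FPKM in Fb against 3310.9 and 2666.9 in Epi, and the 8 fibroblast markers to 200 and 220 in Epi against 9197.6 and 8035.1 in Fb. Placode markers (32.4 and 20.8 in Epi, 0.201 and 0.434 in Fb) and dermal condensate markers (5.46 and 7.57, 22.5 and 26.9) were below their own fractions, at 84.2 and 63.1 in Pc and 2447.9 and 1269.2 in DC. Schwann cell markers had 36.6 and 41.6 in Epi and 63 and 49.4 in Fb, neuron markers 0.891 and 2.55 and 16.7 and 17.5, and adipocyte markers 63.3 and 32.7 and 29 and 26.4. Mast cell, Merkel cell and chondrocyte markers summed to 1.46 to 21.1 FPKM in these libraries. The part of these cells in the differences described here was not tested.

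Among the 12573 genes, 1467 (11.7%) were called higher in Epi and 1960 (15.6%) higher in Fb, at a limma adjusted p under 0.05 and a log2 difference of at least 1. Over all 14171 rows tested, the shares were 10.5% and 14.0%. For 3786 genes (30.1%) the 95% interval of the difference lay wholly within 1 log2 unit of 0, and for the other 5360 the difference was unresolved. Most calls were of genes at 1 FPKM or more in all 4 libraries. Among those 10106 genes, 800 (7.92%) were higher in Epi and 1025 (10.1%) in Fb, below the shares over all 12573. Genes at that level in both Epi libraries and neither Fb library were called higher in Epi in 79.0%. For both Fb libraries and neither Epi library, 86.8% were called higher in Fb. Some markers of a layer also reached 1 FPKM in the other layer. Whether that level comes from cells of the first layer was not tested. Large differences were fewer. A log2 difference of at least 3 was reached by 281 genes higher in Epi and 402 higher in Fb, and of at least 5 by 41 and 51. Scaling mattered for the balance of directions: with every library set to the same total, the median difference moved from 0.024 to -0.219 and the share of calls that were higher in Epi from 42.8% to 32.0%.

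**Figure D2:**
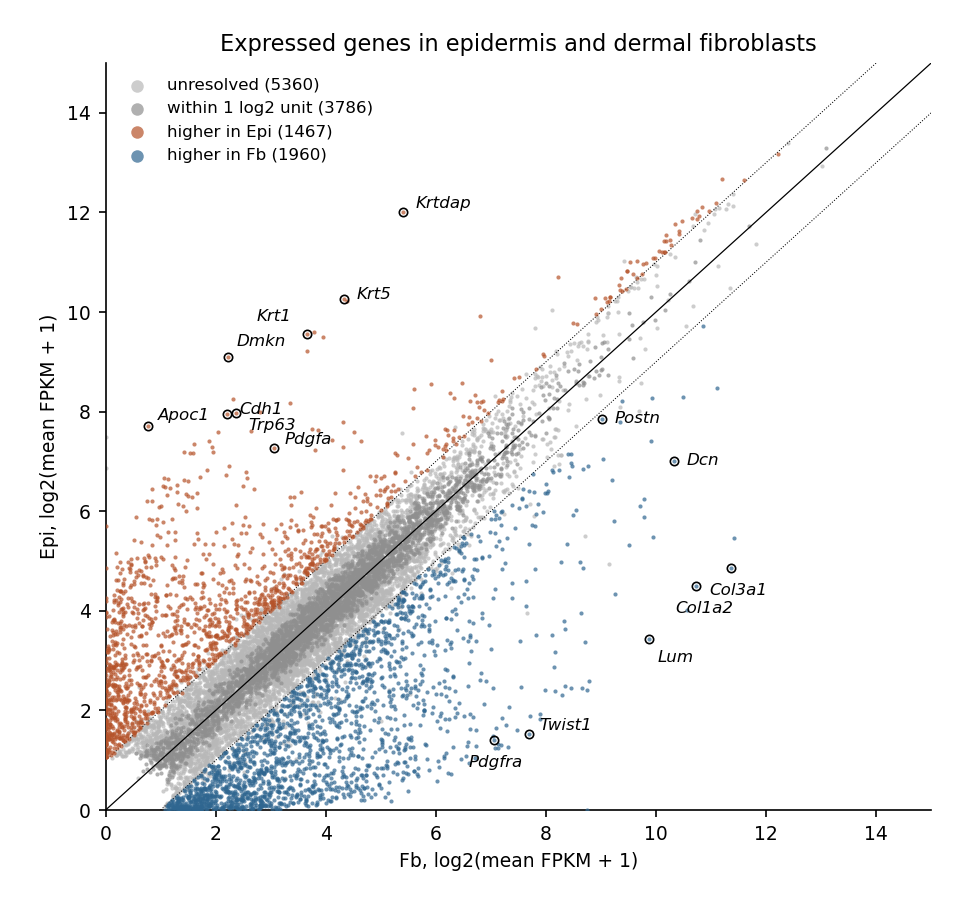
Mean level in Epi against mean level in Fb, both as log2(mean FPKM + 1), for all 12573 expressed genes; colours give the 1467 genes higher in Epi, the 1960 higher in Fb, the 3786 within 1 log2 unit and the 5360 unresolved, and dotted lines mark a difference of 1. Krtdap, Krt5 and Dmkn stand far above the diagonal, Col3a1, Col1a2 and Lum far below it, and Postn and Dcn lie nearer to it.

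The 12 genes with the largest differences on each side were read first. Krtdap, a secreted keratinocyte differentiation protein, had 4198.4 and 3984.1 FPKM in Epi and 38.5 and 44.4 in Fb (log2 difference 6.59). Dmkn, which encodes dermokine, had 621 and 478 in Epi and 5.15 and 2.23 in Fb (6.94), and Apoc1, an apolipoprotein, 235 and 181 in Epi and 0.812 and 0.579 in Fb (6.94). Krt14, Krt1, Dsp, Perp, Stfa3, S100a14 and Fxyd3 completed the leading group with Krt5 and Cdh1, at differences of 5.73 to 5.99. Col3a1, the chain of type III collagen, had 26.9 and 29.5 FPKM in Epi and 2513.8 and 2726.2 in Fb (-6.49). Lum, which encodes lumican, had 7.3 and 12.3 in Epi and 688 and 1188.5 in Fb (-6.43), and Agtr2, the angiotensin II type 2 receptor, 2.43 and 6.2 in Epi and 296 and 563 in Fb (-6.36). Col1a1, Rian, Col1a2, Twist1, Tbx15, Vcam1, Col6a2 and Col6a1 followed at -6.27 to -6.01. Mir199b was listed at 333 and 523 FPKM in Fb and at 0 in both Epi libraries, so no fold is given.

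Promoters of these genes were read for the E-box CACCTG, the sequence bound by the zinc-finger repressors of the SNAI and ZEB families, which are known to shut epithelial genes in mesenchymal cells. Sequences are the 250 bases before the RefSeq start site (GRCm38.p6, which is mm10), for 9250 of the 12567 genes whose symbol belongs to a single gene of the comparison. The motif, on either strand and therefore also as CAGGTG, was in 23.8% of the promoter windows of genes higher in Epi (326 of 1371) and in 12.8% of those of genes higher in Fb (231 of 1804). It was in 13.2% of the windows of genes within 1 log2 unit and in 17.2% of all 32851 windows in the table. With a difference of at least 3, the shares were 30.7% (73 of 238) for Epi and 12.3% (43 of 351) for Fb. In the 100 bases nearest the start site they were 16.8% and 2.28%, against 7.03% of all windows, 4.26% for genes within 1 log2 unit and 5.21% for unresolved genes. At least 2 matches were held by 8.4% and 1.14% of these windows, and by 2.06% of all windows. These shares are a description with no test, and a match is not a shown site of binding; median GC content was 57.6% and 59.2% in those sets, and 52.4% over all windows. Promoters are printed 5′ to 3′ on the gene's strand, with matches in capitals and positions counted back from the start site. Those shown were picked by hand: epithelial promoters with 1 to 4 matches, and those of 2 matrix genes. They do not stand for their sets, since most windows of genes higher in Epi held no match (23.8% held it). Epcam (chr17:87635729-87635978, plus strand) held matches at -187 and -19, Grhl3 (chr4:135573633-135573882, minus strand) at -19, Ap1m2 (chr9:21312334-21312583, minus strand) at -81, -51, -21 and -9, and Krt5 (chr15:101712906-101713155, minus strand) at -128. Dpt (chr1:164796413-164796662, plus strand) had a match at -224, and Col1a2 (chr6:4505368-4505617, plus strand) had no such letters in this window.
Epcam: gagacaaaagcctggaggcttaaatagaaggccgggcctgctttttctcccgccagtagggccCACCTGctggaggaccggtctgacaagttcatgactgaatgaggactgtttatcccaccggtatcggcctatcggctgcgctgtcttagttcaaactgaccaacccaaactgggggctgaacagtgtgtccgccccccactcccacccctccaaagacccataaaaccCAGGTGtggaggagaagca
Grhl3: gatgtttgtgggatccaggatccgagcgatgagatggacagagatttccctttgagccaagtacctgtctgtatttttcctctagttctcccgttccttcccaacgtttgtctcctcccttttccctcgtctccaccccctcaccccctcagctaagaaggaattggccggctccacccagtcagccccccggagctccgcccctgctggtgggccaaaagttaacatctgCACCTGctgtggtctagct
Ap1m2: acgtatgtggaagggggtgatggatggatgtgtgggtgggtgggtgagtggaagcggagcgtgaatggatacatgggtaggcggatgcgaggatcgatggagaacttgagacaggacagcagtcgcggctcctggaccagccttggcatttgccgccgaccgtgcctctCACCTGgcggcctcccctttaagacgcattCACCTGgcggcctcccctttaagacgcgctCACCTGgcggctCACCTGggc
Krt5: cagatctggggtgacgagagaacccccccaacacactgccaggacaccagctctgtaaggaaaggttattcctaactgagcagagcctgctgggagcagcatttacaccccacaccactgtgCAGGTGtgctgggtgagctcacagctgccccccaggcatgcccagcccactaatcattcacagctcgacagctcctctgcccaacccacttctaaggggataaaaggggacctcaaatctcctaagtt
Col1a2: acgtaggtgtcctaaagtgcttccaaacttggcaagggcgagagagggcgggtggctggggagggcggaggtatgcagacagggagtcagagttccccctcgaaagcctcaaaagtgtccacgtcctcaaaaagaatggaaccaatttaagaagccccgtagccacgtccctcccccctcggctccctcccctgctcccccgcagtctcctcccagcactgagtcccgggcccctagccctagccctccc
Dpt: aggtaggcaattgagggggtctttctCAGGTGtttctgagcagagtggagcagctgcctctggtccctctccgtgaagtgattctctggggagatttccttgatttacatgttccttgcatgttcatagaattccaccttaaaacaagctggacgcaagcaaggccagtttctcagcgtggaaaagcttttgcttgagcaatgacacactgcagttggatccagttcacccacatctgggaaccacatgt

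The genes behind the first 3 of these promoters were read almost wholly in Epi. Epcam, a surface adhesion protein of epithelia, had 74.8 and 63.8 FPKM in Epi and 1.83 and 1.15 in Fb. Grhl3, a grainyhead transcription factor of the barrier, had 88.3 and 84.8 in Epi and 1.0 and 0.584 in Fb. Ap1m2, the epithelial subunit of a clathrin adaptor that sorts proteins to the basolateral membrane, had 24.6 and 22.6 in Epi and 0.115 and 0.164 in Fb. Of the repressors that read this E-box, Zeb1 was higher in Fb (0.413 and 1.15 FPKM in Epi, 25.3 and 37.2 in Fb; log2 difference -4.18). Snai1 was too (0.11 and 0.0408 in Epi, 18.6 and 4.46 in Fb; -3.27). Snai2 was not called, with 32.3 and 43.6 FPKM in Epi and 41.6 and 64.8 in Fb, a level in both layers. The expression table has no row under the symbol Zeb2. Whether these factors act on these promoters was not tested.

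All 21 genes of the list of epithelial surface, splicing and protease genes were called higher in Epi, with a median log2 difference of 4.57, against 0.024 over all genes of the comparison. Esrp1 and Esrp2, which set the epithelial pattern of alternative splicing, differed by 5.24 and 5.35. Rab25, a GTPase of apical recycling, had 97.1 and 79.4 FPKM in Epi and 1.92 and 0.295 in Fb (5.51). The matriptase gene St14 (3.51), its target protease Prss8 (2.52) and their inhibitors Spint1 (4.66) and Spint2 (5.13) were on this side together. Ddr1, a collagen receptor kinase, had the smallest difference of the list (2.12), with 31.3 and 24.9 FPKM in Epi and 8.63 and 3.63 in Fb. Its relative Ddr2 lay the other way, with 0.936 and 1.15 FPKM in Epi and 70.8 and 103 in Fb (-5.41).

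Of the epithelial transcription factors, 19 of 23 listed genes were expressed and 17 were called higher in Epi, with a median difference of 3.44. Besides Trp63 they included the AP-2 genes Tfap2a (4.63), Tfap2b (4.93) and Tfap2c (3.22), and the grainyhead genes Grhl1 (4.49), Grhl2 (4.40) and Grhl3 (5.62). Zfp750, a p63 target that drives terminal differentiation, had 93.3 and 102 FPKM in Epi and 1.89 and 1.48 in Fb (5.20). Klf5 had 137 and 101 FPKM in Epi and 5.36 and 2.07 in Fb (4.75), while Klf4, which acts late in barrier formation, was not resolved, with 17.6 and 16.7 in Epi and 11.9 and 5.16 in Fb. Ovol2, which holds cells in an epithelial state, had 8.43 and 6.23 FPKM in Epi and was listed at 0 in both Fb libraries. Lhx2, a placode factor, was under 1 FPKM in all 4 libraries.

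Keratins of the basal and of the first suprabasal layer were both well read. Of 19 listed keratins, 12 were expressed and all 12 were called higher in Epi. The basal keratins Krt5, Krt14 and Krt15 were high in Epi (Krt15 had 721 and 473 FPKM), and so were Krt1 and Krt10, the pair of the first suprabasal layer: Krt1 had 855 and 659 FPKM in Epi and 12.2 and 11 in Fb, and Krt10 859 and 594 in Epi and 18.1 and 10.6 in Fb. Simple and periderm keratins were low: Krt17 had 27.2 and 22.3 FPKM, Krt19 3.94 and 6.18, Krt4 2.9 and 1.96, and Krt8 only 0.237 and 0.317 in the Epi libraries. All 8 expressed genes of the 11 on the periderm list were higher in Epi, led by Sfn (92.2 and 81.7 FPKM) and Grhl3, genes that keratinocytes also express. Of the 25 entries of the differentiation and barrier list, 19 were expressed and all 19 were higher in Epi, with a median difference of 3.88. Sbsn, a secreted suprabasal protein, had 197 and 192 FPKM in Epi and 6.81 and 3.61 in Fb. Genes of the granular layer were low by comparison: Lor, the main protein of the cornified envelope, had 7.16 and 2.01 FPKM in Epi and 0.142 and 0.16 in Fb and was not called without Epi replicate 1. The lipid transporter Abca12 had 30.1 and 28.4 FPKM, transglutaminase Tgm1 26.2 and 22.3, and the ceramide synthase Cers3 9.45 and 14.2 in Epi, each under 1 in both Fb libraries.

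Desmosome and most tight junction genes were higher in Epi. All 13 expressed desmosome genes of 14 listed were called higher in Epi: Dsp, which links desmosomes to keratin, had 324 and 282 FPKM in Epi and 4.12 and 3.82 in Fb, and Perp 1111.5 and 1280.8 in Epi and 16.5 and 23 in Fb. The plakophilin Pkp1 differed by 5.62, and the desmosomal cadherins Dsc3, Dsg1a, Dsg2, Dsc1, Dsg3 and Dsc2 by 3.43 to 4.75. Of 18 tight junction genes, 16 were expressed, 13 were higher in Epi and Cgnl1 (paracingulin) was higher in Fb, with 2.13 and 1.11 FPKM in Epi and 7.76 and 7.16 in Fb. Claudins differed in level: Cldn1, needed for the water barrier, had 43.6 and 59.8 FPKM in Epi and 8.08 and 12 in Fb, Cldn6 had 10.1 and 19.3 in Epi and was listed at 0 in Fb, and Cldn4 had 9.24 and 8.81 in Epi. The scaffold Tjp1 lay within 1 log2 unit, with 27.9 and 34.4 FPKM in Epi and 28.1 and 39.8 in Fb.

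Classical cadherins marked each layer with different members. Cdh1 and Cdh3 (P-cadherin; 80 and 58.3 FPKM in Epi, 9.01 and 9.77 in Fb; log2 difference 2.74) were higher in Epi. Cdh11, the cadherin of mesenchyme, had 2.21 and 6.33 FPKM in Epi and 222 and 348 in Fb (-5.84). Cdh6 (-3.19), Cdh2, which encodes N-cadherin (-2.37), and Cdh8 (-1.53) were also higher in Fb, with Cdh2 at only 5.76 and 8.51 FPKM there. The catenins that all of them bind were shared: Ctnnb1 had 502 and 423 FPKM in Epi and 308 and 417 in Fb, and Ctnna1 90.3 and 82.5 in Epi and 76.2 and 83.4 in Fb, both within 1 log2 unit. The neuronal catenins parted, Ctnna2 higher in Fb (-2.81) and Ctnnd2 higher in Epi (1.21). Of the nectins, Pvrl4 had 76.8 and 59.2 FPKM in Epi and 1.02 and 1.01 in Fb (5.08), and Pvrl1 differed by 2.79, while Pvrl2 (-0.69) and Pvrl3 (-0.97) were not called.

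Basement membrane genes were called in both directions. Of 34 listed genes, 31 were expressed, 13 were called higher in Epi and 12 higher in Fb. Of the laminin that hemidesmosomes bind, the chain Lama3 had 24.2 and 22.4 FPKM in Epi and 0.499 and 0.358 in Fb (4.09), and Lamb3 differed by 2.76. Lama5 was higher in Epi as well (3.54). The chains of other laminins lay with Fb: Lama4 had 2.68 and 2.71 FPKM in Epi and 87.8 and 91.9 in Fb (-4.62), Lama2 differed by -3.93, Lamc1 by -1.65 and Lamb1 by -1.14. The linker proteins nidogen 1 and 2 were among the most uneven: Nid1 had 4.94 and 6.57 FPKM in Epi and 105 and 118 in Fb (-4.07), and Nid2 differed by -4.15. Type IV collagen split by chain, with Col4a1 (-1.81) and Col4a2 (-1.56) higher in Fb and Col4a6 (1.32) higher in Epi; the call of Col4a2 was lost in 5 of 11 alternative settings. The Fraser complex was divided between the layers, with Fras1 (3.51) and Frem2 (4.13) higher in Epi and Frem1 (-3.56) higher in Fb, at 5.92 and 4.14 FPKM in Epi and 62.5 and 76.9 in Fb. Col7a1, the anchoring fibril collagen, had 5.93 and 4.55 FPKM in Epi and 48.5 and 13.9 in Fb (-2.13), and was not called without Fb replicate 1 or without Epi replicate 2.

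Among receptors for this matrix, more integrins were called higher in Fb than in Epi. The hemidesmosome genes Col17a1 (102 and 63.7 FPKM in Epi, 1.51 and 1.41 in Fb; 5.05) and Itgb4 (40.6 and 24.8 in Epi, 1.15 and 0.28 in Fb; 4.30) were higher in Epi. Itga6, the partner of Itgb4, was not resolved, with 34.4 and 34.3 FPKM in Epi and 17.1 and 28.1 in Fb. Itga3, another receptor for that laminin, differed by 4.03 and the collagen receptor chain Itga2 by 1.69. Of 17 expressed integrins among 18 listed, these, Itgb4 and Itgb6 (1.24) made up the 4 higher in Epi, and 9 were higher in Fb. The latter included Itga8 (-4.25), Itga9 (-3.93), the collagen receptor chain Itga11 (-3.67), Itga1 (-3.29), Itgb3 (-3.26) and the fibronectin receptor chain Itga5 (-2.76). Itgb1, the shared beta chain, had 34.5 and 45.2 FPKM in Epi and 157 and 258 in Fb (-2.32).

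All 17 expressed collagens of the 20 on the fibrillar list were called higher in Fb, with a median difference of -3.93. Type VI collagen, which forms beaded filaments around cells, was read from 3 genes of close levels: Col6a1 had 436 and 265 FPKM in Fb, Col6a2 581 and 221, and Col6a3 357 and 270, each at 3.25 to 5.62 FPKM in the Epi libraries. Type V collagen, which nucleates collagen fibrils, was less uneven: Col5a1 had 17.2 and 14.8 FPKM in Epi and 248 and 147 in Fb (-3.50), and Col5a2 differed by -4.32. Col12a1, a collagen that decorates fibrils, had 25.9 and 29.7 FPKM in Epi and 206 and 237 in Fb (-2.95). Of 23 proteoglycan and elastic fibre genes, all expressed, 20 were higher in Fb. The fibrillins Fbn1 (-4.59) and Fbn2 (-5.26), elastin (Eln, -4.09), dermatopontin (Dpt; 2.3 and 3.35 FPKM in Epi, 230 and 245 in Fb; -5.97) and Mfap4 (-5.56) were among them. Fmod (-0.26), Ltbp3 (-0.88) and Ltbp4 (-0.24) were the members not called.

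The enzymes that build collagen lay with it. Of 21 listed processing genes, 20 were expressed and 18 were called higher in Fb. Lox, which cross-links collagen and elastin, had 1.34 and 1.59 FPKM in Epi and 138 and 152 in Fb (-5.89). Pcolce, which speeds the cleavage of procollagen, differed by -5.43, the chaperones Fkbp10 by -4.95 and Serpinh1 by -3.27, and the prolyl hydroxylase chains P4ha1 by -2.07 and P4ha2 by -2.41. Leprel1, a prolyl 3-hydroxylase, was not called (0.36; 26.1 and 20.4 FPKM in Epi, 17.4 and 18.2 in Fb), and neither was Adamts14 (-1.23). Of 19 matrix proteases and inhibitors, 16 were expressed and 14 were higher in Fb. They included Reck, a membrane inhibitor of metalloproteases (1.67 and 2.42 FPKM in Epi, 99.6 and 110 in Fb; -5.13), Adamts9 (-4.73), Adamts12 (-4.34), Mmp16 (-4.04) and Timp2 (-3.65). Mmp2 (-1.04) had 46.2 and 39.7 FPKM in Epi and 101 and 78.6 in Fb, and lost its call in 3 of 11 alternative settings.

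Some matrix genes were well read in the epidermis too. Taking genes of at least 100 FPKM on their high side, 7 of the 8 fibroblast markers had an Epi mean of 1.01% to 1.29% of their Fb mean, and 5 keratinocyte markers had an Fb mean of 1.31% to 1.67% of their Epi mean. Dcn stood apart from the other fibroblast markers at 10%. Postn, which encodes periostin, reached 44.7% (227 and 235 FPKM in Epi, 432 and 602 in Fb; -1.14), and Vcan, the large proteoglycan versican, 36.2% (87.6 and 97.8 in Epi, 185 and 328 in Fb; -1.40). Sparc, a matrix protein that binds collagen, reached 16.2% (364 and 349 in Epi, 2297.7 and 2105.9 in Fb), Col12a1 12.5%, Serpinh1 9.93% and the intermediate filament gene Vim 8.48%. Calls of Postn and of Vcan were lost without Epi replicate 1 and without Fb replicate 2, and that of Postn also without Epi replicate 2. Whether the shared level near 1% comes from cells of the other layer was not tested.

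Fibroblast genes outside the core matrix were also nearly all on 1 side: of 22 listed, 21 were expressed and 20 were higher in Fb. Pdgfra had 1.6 and 1.68 FPKM in Epi and 116 and 149 in Fb (-5.65), and Crabp1, a retinoic acid binding protein, 35.9 and 50.3 in Epi and 3483.2 and 1985.2 in Fb (-5.92). Fn1, which encodes fibronectin, differed by -5.34, Vcam1 by -6.05 and Dlk1 by -5.70. The surface peptidase Dpp4, a marker of one fibroblast lineage of the dermis, went the other way with 4.58 and 5.09 FPKM in Epi and 1.34 and 2.3 in Fb (1.07), a call lost in 3 of 11 alternative settings. Pdgfrb, which mural cells also carry, had 1.11 and 0.949 FPKM in Epi and 66 and 45.7 in Fb (-4.79), beside the higher mural marker sum in Fb given above.

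Of 38 listed mesenchymal transcription factors, 28 were expressed, 22 were called higher in Fb and 2 higher in Epi. Twist1, a helix-loop-helix factor of dermal mesenchyme, had 2.23 and 1.5 FPKM in Epi and 261 and 150 in Fb (-6.13), and Twist2 2.46 and 2.91 in Epi and 277 and 138 in Fb (-5.74). Tbx15 (-6.07), which patterns dorsal dermis, Prrx1 (-5.90), Osr1 (-5.27), Prrx2 (-4.77) and Osr2 (-4.43) followed. Ebf1 differed by -4.22 and Runx2 by -2.60. En1, which marks a dermal lineage, was at 7.5 and 4.54 FPKM in Fb and at 0 and 0.0479 in Epi. The 2 higher in Epi were Foxp1 (19.4 and 25.6 FPKM in Epi, 2.19 and 4.02 in Fb; 2.54) and Pbx3 (1.13), the latter not called with every library at the same total. Sox9 (0.68), Meis2 (-0.79), Nr2f2 (-0.27) and Snai2 (-0.46) were unresolved.

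**Figure D3:**
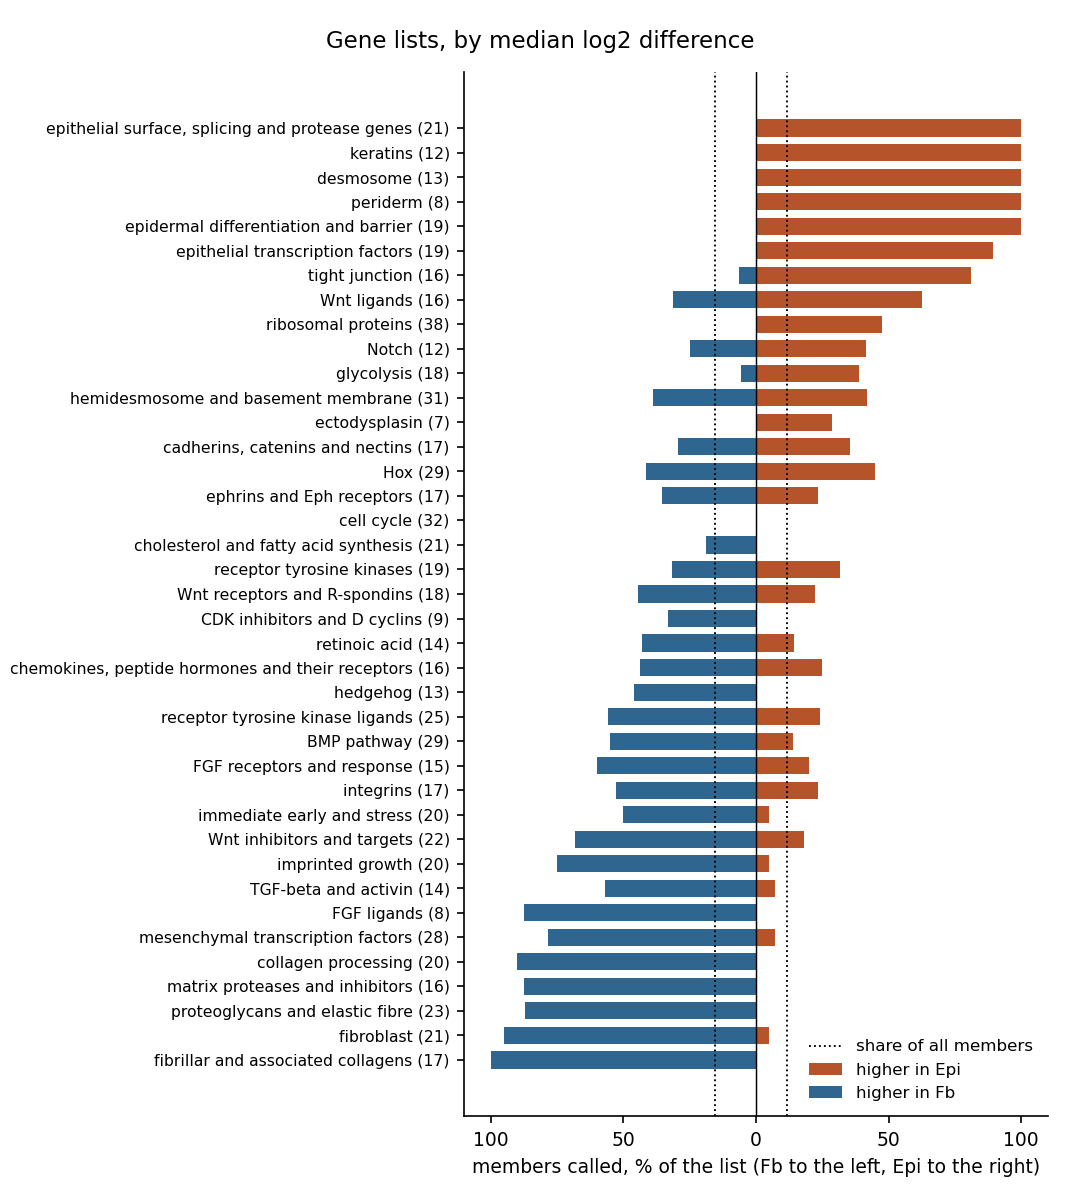
Share of the expressed genes of 39 lists called higher in Epi (right) and higher in Fb (left), with the number expressed in brackets and lists ordered by their median log2 difference; dotted lines give the shares over all 12573 genes, 11.7% and 15.6%. Lists at the top and the bottom are called nearly whole in 1 direction, and signalling lists hold both directions.

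Hox genes, which encode position along the body axis, did not go 1 way as a family. Clusters leaned to different sides, and the Hoxa and Hoxc clusters held calls in both directions. Of 39 listed, 29 were expressed, 13 were called higher in Epi and 12 higher in Fb. In the Hoxa cluster, Hoxa2 to Hoxa7 were higher in Epi and the 5′ genes Hoxa9 (-2.05) and Hoxa10 (-2.62) higher in Fb. Hoxa5 had 32.7 and 30.5 FPKM in Epi and 1.87 and 1.73 in Fb (3.54), while Hoxa10 had 0.155 and 0.518 in Epi and 6.17 and 8.27 in Fb, so the direction turned within 1 cluster. In the Hoxb cluster, 5 of 8 were higher in Epi, Hoxb4 to Hoxb8, with differences of 1.26 to 2.44. In the Hoxc cluster, 5 of 7 were higher in Fb. Hoxc10 had 0.17 and 0.132 FPKM in Epi and 26.3 and 23.2 in Fb (-4.48), and Hoxc13, known for its role in hair and nail, was higher in Epi at 4.01 and 1.46 FPKM (1.74). All 5 expressed Hoxd genes were higher in Fb, led by Hoxd8 with 2.5 and 0.787 FPKM in Epi and 29.9 and 32.8 in Fb (-3.69). Hoxb4 and Hoxc6 each lost the call in 2 of 11 alternative settings. Of the 25 called Hox genes, 24 had the same sign between Pc and DC, near the share over all called genes (1363 of the 1467 higher in Epi and 1731 of the 1960 higher in Fb). The table's counting is not stated to use strand, so a Hox gene and an antisense transcript across it cannot be told apart.

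**Figure D4:**
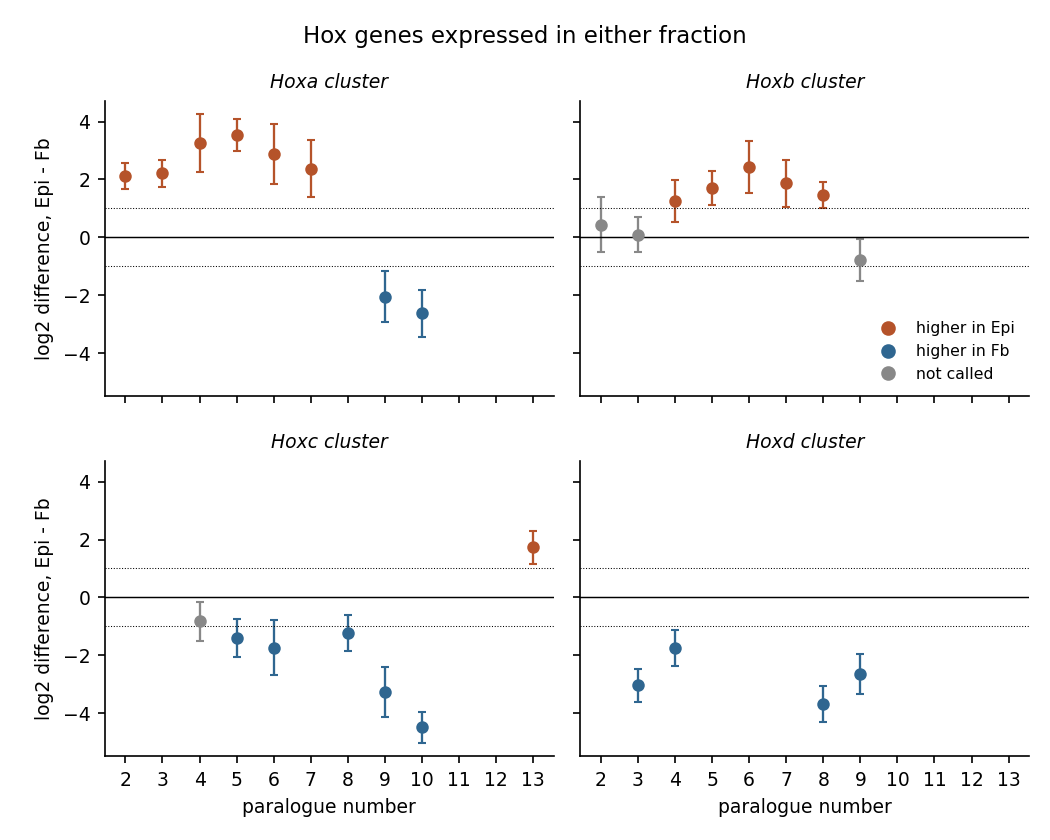
Log2 difference, Epi minus Fb, with its 95% interval for expressed Hox genes, by paralogue number from 2 upward in each cluster; dotted lines mark 1 and -1. Hoxa2 to Hoxa7 lie above 0 and Hoxa9 and Hoxa10 below it, Hoxb4 to Hoxb8 lie above it, and the Hoxd genes plotted lie below it.

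Some neighbouring genes went the same way. Runs of at least 4 consecutive expressed genes called in 1 direction numbered 22 for Epi and 29 for Fb, given here as a description. The longest for Epi held 10 genes, from Skap2 through Hoxa7 (chr6:51859165-52218573). Others were families of the barrier: the stefin run from Csta to Eaf2 with 8 genes (chr16:36119946-36874826), the serpin run Serpinb5 to Serpinb8 with 8 (chr1:106861180-107608978) and the type I keratins Krt10 to Krt17 with 7 (chr11:99385256-100260989). The kallikreins Klk13 to Klk8 gave 7 genes (chr7:43712567-43803822) and the desmosomal cadherins Dsc3 to Dsg2 also 7 (chr18:19960930-20604526). In Fb, the longest run held 8 genes around Armcx1 to Armcx6 (chrX:134686519-135844730). Others were Abca8b to Abca5 with 5 genes (chr11:109933406-110337716), Hoxd9 to Hoxd1 with 6 (chr2:74697763-74765142), and 3 that hold imprinted genes, around Ndn (6 genes, chr7:61705850-62464510), Peg3 (6 genes, chr7:6383318-6976662) and Dlk1 (5 genes, chr12:109032182-109595403).

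Imprinted growth genes as a list lay with Fb, where 15 of 20 expressed genes of 21 were called higher and 1 higher in Epi. Igf2, a fetal growth factor, had 301 and 325 FPKM in Epi and 1610.1 and 1253.8 in Fb (-2.18), Peg3 49.9 and 59.6 in Epi and 575 and 625 in Fb (-3.44), and Cdkn1c, which brakes the cell cycle, 32.9 and 23.5 in Epi and 507 and 309 in Fb (-3.79). Dlk1, Meg3 (-5.79) and Mest (-3.87) were among the most uneven. H19, which shares its locus with Igf2, was not called (755 and 666 FPKM in Epi, 1056.4 and 625 in Fb). Phlda2, which restrains growth of the placenta, was higher in Epi with 15.1 and 9.22 FPKM against 0.848 and 0.717 in Fb (2.85), a call lost without Epi replicate 1 or Fb replicate 2.

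The ligands and receptors of signalling between the layers were compared as 20 pairs, chosen with earlier results of these data known. In them, 35 of 38 genes were expressed. Of these, 12 were called higher in Epi and 16 higher in Fb. PDGF ran with its ligands in the epidermis and its receptor in the dermis: Pdgfa had 183 and 122 FPKM in Epi and 9.97 and 4.66 in Fb (4.26), Pdgfc differed by 3.24, and Pdgfra by -5.65 as above. Keratinocyte growth factors ran the other way. Fgf7 had 0.547 and 0.524 FPKM in Epi and 5.99 and 11.3 in Fb (-2.59), Fgf10 0.0703 and 0.27 in Epi and 5.29 and 7.74 in Fb (-2.67), and their receptor gene Fgfr2 158 and 138 in Epi and 58.3 and 57 in Fb (1.34; not called without Epi replicate 1). Hgf was low in both layers, with 0.0898 and 0.507 FPKM in Epi and 1.28 and 2.16 in Fb, and its receptor Met had 9.12 and 10.6 in Epi and 1.75 and 2.87 in Fb (1.73). The call of Hgf (-1.07) was lost after quantile normalization and without Epi replicate 1, and Hgf was not tested with an Fb library left out.

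Further pairs were called in opposite directions or on 1 side only. Pthlh, the parathyroid hormone related peptide, had 1.94 and 1.25 FPKM in Epi and 0.278 and 0.289 in Fb (1.0; lost in 3 of 11 settings), and its receptor Pth1r 1.03 and 1.2 in Epi and 137 and 47.5 in Fb (-5.27). Kitl, the ligand that draws melanoblasts, had 4.5 and 6.95 FPKM in Epi and 19.4 and 37.1 in Fb (-2.07), and Kit 6.03 and 14.6 in Epi and 2.75 and 4.44 in Fb (1.21). The call of Kit was lost in 6 of 11 settings, and Kit is itself among the 10 melanocyte markers whose sum was higher in Epi. Eda, the ectodysplasin ligand, was within 1 log2 unit (4.02 and 4.16 FPKM in Epi, 5.8 and 5.54 in Fb), while its receptor Edar had 6.24 and 4.82 in Epi and was listed at 0 in both Fb libraries. Igf1 had 3 and 4.86 FPKM in Epi and 41 and 46.4 in Fb (-3.21), with Igf1r not called (-0.80). Other pairs stayed within a layer: Jag2 (3.19) with Notch1 (2.57) and Wnt4 (1.35) with Fzd6 (3.09) in Epi, and Wnt5a with Ror2 and Tgfb2 (-2.50) with Tgfbr2 (-3.10) in Fb. The chemokine Cxcl12 had 0.616 and 1.63 FPKM in Epi and 60.8 and 79 in Fb (-5.09), and Cxcr4, its receptor, was low in both (0.45 and 0.911, 1.17 and 2.11). Shh was under 1 FPKM in all 4 libraries, with Ptch1 at 26.2 and 18.3 in Epi and 38.5 and 24 in Fb.

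**Figure D5:**
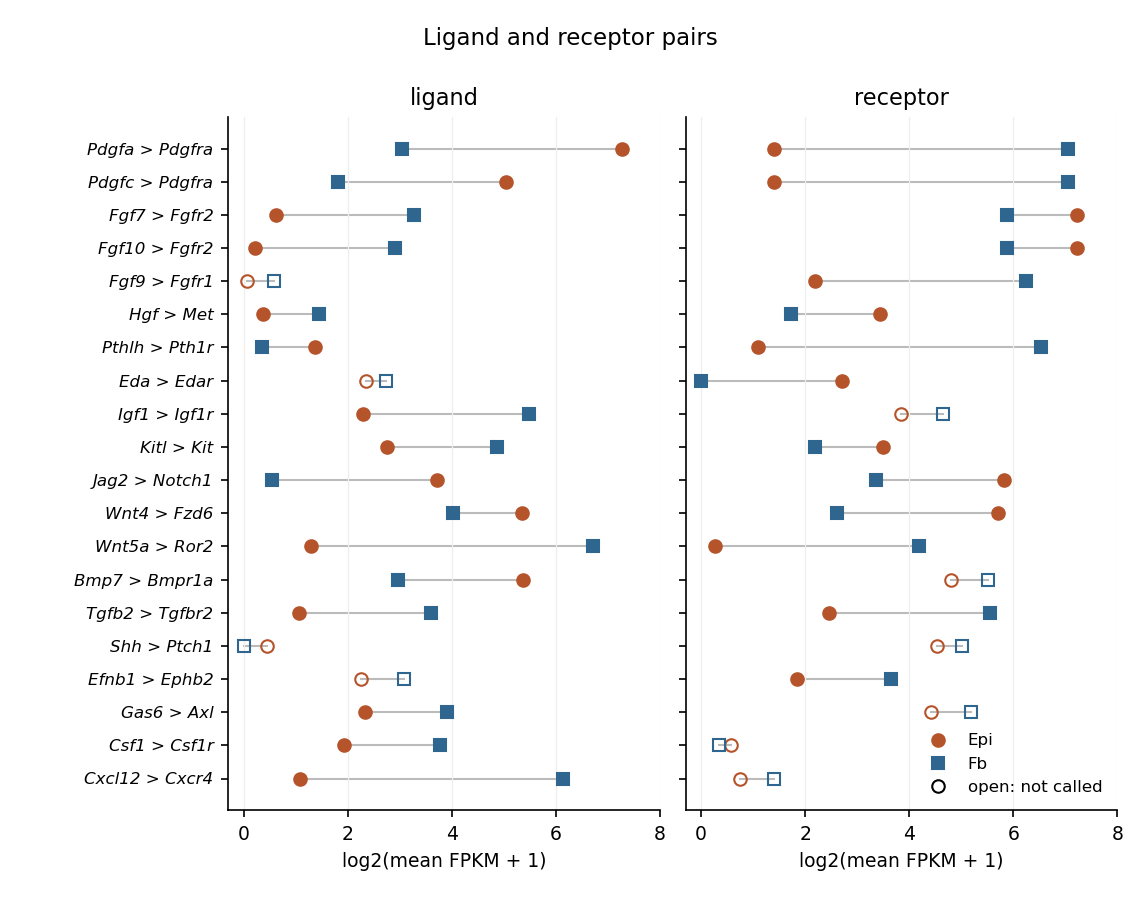
Mean level, as log2(mean FPKM + 1), of the ligand (left) and the receptor (right) of 20 pairs in Epi (circles) and Fb (squares); open symbols mark genes that were not called. Pdgfa and Pdgfra lie at opposite ends in ligand and receptor. Pthlh and Pth1r part in the same directions, but Pthlh is low in both groups (1.6 FPKM in Epi, 0.283 in Fb). Fgf7, Fgf10 and Kitl lie the other way round.

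The wider families showed which members each layer held. Of 16 expressed Wnt ligands among 19, 10 were higher in Epi: Wnt10b (19.3 and 11.7 FPKM in Epi, 0 and 0.434 in Fb), Wnt3 (3.98), Wnt7b (3.62), Wnt7a (3.37), Wnt6 (2.94), Wnt16 (2.57), Wnt3a (2.52), Wnt10a (2.27), Wnt4 (1.35) and Wnt9b (1.12). The 5 higher in Fb were Wnt5a (0.673 and 2.23 FPKM in Epi, 86.5 and 124 in Fb; -5.49), Wnt11 (-2.67), Wnt2b (-1.87), Wnt9a (-1.86) and Wnt2 (-1.35). Wnt5a and Wnt11 are known for signalling without beta-catenin. Of 18 expressed Wnt receptors and R-spondins, 4 were higher in Epi (2 without Epi replicate 1) and 8 higher in Fb. Fzd6 had 47.4 and 54.6 FPKM in Epi and 5.21 and 5 in Fb, and Fzd10 differed by 2.32. Fzd1 (-2.44), Fzd2 (-1.88), Ror1 (-2.68), Ror2 (-3.83) and the R-spondin genes Rspo1 (-4.67) and Rspo3 (-3.86), whose products raise Wnt receptor levels, were higher in Fb.

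Wnt inhibitors and targets lay mostly with Fb, 15 of 22 expressed genes against 4 higher in Epi. Sfrp2, a secreted Wnt binder, had 2.78 and 2.48 FPKM in Epi and 127 and 75.5 in Fb (-4.77), Wif1 differed by -4.25, Dkk2 by -3.65 and Dkk1 by -3.37. The feedback targets Nkd1 (-3.96), Sp5 (-3.62), Nkd2 (-3.34) and Apcdd1 (-1.96) were higher in Fb, and Notum had 6.38 and 2.49 FPKM in Fb and was listed at 0 in Epi. Axin2, another target, was not called (21 and 18.7 FPKM in Epi, 36.1 and 18.6 in Fb). In Epi, Rnf43 (3.33) and Znrf3 (1.45), ligases that remove Wnt receptors, were higher, as was Lef1 (1.12; 54.6 and 50.3 FPKM against 27.1 and 20.3), which lost its call in 2 of 11 settings. Dkk4, a placode gene, had 4.54 and 3.77 FPKM in Epi and was listed at 0 in Fb.

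FGF genes were lopsided. Of 22 listed ligands, 8 were expressed and 7 were higher in Fb, led by Fgf13 (-3.79), Fgf18 (-2.79), Fgf10 and Fgf7. The feedback inhibitors of FGF signalling Spry4 (1.11 and 1.2 FPKM in Epi, 21.9 and 21.3 in Fb; -3.39), Il17rd (-2.57), Spred1 (-2.37) and Spry2 (-2.32) lay with Fb, as did Fgfr1 (4.29 and 2.8 in Epi, 94 and 55.6 in Fb; -4.03). Dusp6 and Spred2 were within 1 log2 unit. Besides Fgfr2, Fgfr3 (2.50) and Fgfbp1, a carrier that frees FGFs from the matrix (204 and 179 FPKM in Epi, 4.13 and 2.16 in Fb; 5.58), were higher in Epi.

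Among other growth factors, 14 of 25 expressed receptor kinase ligands were higher in Fb and 6 in Epi. Figf, which encodes VEGF-D, had 2.07 and 3.61 FPKM in Epi and 73.8 and 90.8 in Fb (-4.46), and Vegfc (-3.02) and Gdnf (-3.01) were also higher in Fb. Receptor kinases divided evenly, 6 of 19 each way. Egfr had 69.4 and 67.3 FPKM in Epi and 14.9 and 17 in Fb (2.03), and Erbb3 16.4 and 15.1 in Epi and 0.521 and 0.755 in Fb (3.36). Erbb2 (1.6) lost its call in 3 of 11 settings. Ddr2, Pdgfra and Pdgfrb led the Fb side, followed by Ntrk2 (-2.62) and Ntrk3 (-2.16).

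BMP and TGF-beta genes leaned to Fb as well. Of 29 expressed BMP genes among 35, 16 were higher in Fb and 4 in Epi. The ligand Bmp4 had 3.65 and 2.83 FPKM in Epi and 25.7 and 18.8 in Fb (-2.45), whereas Bmp7 had 48.7 and 32.2 in Epi and 9.09 and 4.63 in Fb (2.43), and Bmp2 was within 1 log2 unit (4.44 and 5.04, 4.21 and 4.34). Of the antagonists, Fstl1 (-4.18) and Grem1 (-3.90) were higher in Fb. Sostdc1 (110 and 115 FPKM in Epi, 19.4 and 18.5 in Fb; 2.51) and Fst (1.77) were higher in Epi. The receptor Bmpr1b differed by 2.35, and Bmpr2 was within 1 log2 unit. The target genes Id1 and Id3 (each -1.76) lost their calls in 7 and 5 of 11 settings. Of 14 expressed TGF-beta and activin genes, 8 were higher in Fb, among them the activin chains Inhba (-4.21) and Inhbb (-3.86), while the activin receptor Acvr1b (31.8 and 28 FPKM in Epi, 2.86 and 2.85 in Fb; 3.0) was higher in Epi.

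Smaller lists gave fewer calls. Of 13 expressed hedgehog genes, 6 were higher in Fb (3 without Epi replicate 2), led by Hhip (-2.03), Cdon (-1.88) and Gas1 (-1.71), while Smo (-1.01) lost its call in 6 of 11 settings. Of 12 Notch genes, 5 were higher in Epi, among them Jag1 (35.6 and 42.3 FPKM in Epi, 3.77 and 4.8 in Fb; 2.92) and Dll1 (2.06), and the targets Heyl (-2.78), Hey1 (-2.56) and Hey2 (-2.39) were higher in Fb. Of 7 ectodysplasin genes, Edar and Traf6 (1.17) were higher in Epi, Traf6 not with every library at the same total or without Epi replicate 2. Of 17 ephrin and Eph genes, 4 were higher in Epi, including Epha1 (3.38) and Efna1 (2.56), and 6 in Fb, including Epha3 (-3.64), Efnb3 (-2.44) and Efna5 (-2.02). Retinoid genes were higher in Fb in 6 of 14, with Crabp1, Crabp2 (-3.65) and the degrading enzyme Cyp26b1 (-3.24), and higher in Epi for Dhrs3 (1.97; not without Epi replicate 1 or Fb replicate 2) and Rxra (1.78). Of 16 chemokine and peptide hormone genes, 7 were higher in Fb and 4 in Epi (2 without Epi replicate 1). Edn3 (-3.19) and Ednra (-5.22) lay with Fb, and Edn1 (1.49) and Ednrb (2.17; 7.68 and 13.6 FPKM in Epi, 0.932 and 2.23 in Fb) with Epi, the last beside the melanocyte markers that moved with it.

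No cell cycle gene of 32, all expressed, was called by limma in either direction; 1 was higher in Epi and 3 higher in Fb at an unadjusted p under 0.05, and limma without trend and robust settings called 0 as well. For 17 of them the interval lay within 1 log2 unit. Pcna, the replication clamp, had 187 and 215 FPKM in Epi and 150 and 185 in Fb, and Ccnb2, a mitotic cyclin, 46.1 and 53.5 in Epi and 57.8 and 50.1 in Fb, so the groups overlapped for Ccnb2 and lay next to each other for Pcna. With every library at the same total, 2 of the 32 were called higher in Fb. Of the D cyclins, Ccnd1 had 17.3 and 21 FPKM in Epi and 95.6 and 85.3 in Fb (-2.19). Ccnd2 was not called, with 93.6 and 102 in Epi and 84.3 and 98.6 in Fb, where the groups overlapped. Of the CDK inhibitors, Cdkn1c and Cdkn2c (-2.58) were higher in Fb. Of 21 genes of cholesterol and fatty acid synthesis, 4 were higher in Fb and 0 in Epi, while 7 lay within 1 log2 unit and 10 were unresolved. The share higher in Fb was near the 15.6% over all 12573 genes, so the count shows no clear lean of the list. Scd1, a fatty acid desaturase, was the most uneven (1.22 and 1.48 FPKM in Epi, 15 and 16.3 in Fb, log2 difference -2.83).

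Glycolysis genes leaned to Epi, with 7 of 18 higher there and Hk1 higher in Fb (-1.32; lost in 3 of 11 settings). The glucose transporter Slc2a1 had 207 and 174 FPKM in Epi and 29.2 and 14.7 in Fb (3.13), Ldhb 196 and 145 in Epi and 25.4 and 22.3 in Fb (2.77), and Hk2 differed by 1.39. Gapdh (1.03) and Aldoa (1.12) lost their calls in 5 and 6 of 11 settings. Ribosomal protein genes had a median difference of 1.11 and 18 of 38 were called higher in Epi. That count was 7 with every library at the same total and 0 after quantile normalization. It also fell without Epi replicate 1, and it rose in at least 1 other alternative. Immediate early and stress genes were higher in Fb in 10 of 20, led by Cyr61 (4.5 and 4.54 FPKM in Epi, 237 and 137 in Fb; -5.04), Klf2 (-3.73) and Nr4a1 (-3.48), and Hspa1b was higher in Epi (1.99). In Fb these genes were also uneven between replicates: Klf2 had 36.3 and 8.57 FPKM and Junb 15.6 and 1.61, and Junb (-2.09) was not called.

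Whether these differences hold in the follicle primordium was asked of Pc and DC, which share no library with Epi and Fb. Of the 1467 genes higher in Epi than in Fb, 885 (60.3%) were also higher in Pc than in DC, and they made up 47.1% of the 1878 called so; of the 1960 higher in Fb, 1129 (57.6%) were higher in DC, 55.8% of 2023. Over all rows tested, 13.3% were higher in Pc and 14.3% higher in DC. Opposite calls were few, 23 and 35. The difference of the differences, (Epi - Fb) - (Pc - DC), was called for 650 genes in the positive direction and 1151 in the negative one, with 5.89% and 8.19% called over all rows tested. With the replicate number as a block, 1075 genes were called in the positive direction.

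The calls between Pc and DC were also counted by list. All 13 expressed desmosome genes and 20 of 21 surface genes were higher in Pc than in DC too. Of the barrier genes, 13 of 19 were higher in Pc and 1 in DC, with a median of 1.70 against 3.88 between Epi and Fb, and 13 of 19 were called in the positive direction in the difference of differences. Proteoglycan and elastic fibre genes were higher in DC in 13 of 23, with a median of -1.68 against -3.60, and 11 were called in the negative direction. Cell cycle genes, of which none was called between Epi and Fb, were higher in Pc than in DC in 29 of 32, with a median of 3.08 against -0.26 between Epi and Fb, and 26 of 32 were called in the negative direction.

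The 6 genes with the largest gap in each direction were taken. Of the 6 negative ones, Mir199b, Malat1, Snora21 and Snora17 were listed at 0 in both DC libraries and are given no fold. The 6 positive ones include Cdkn1a, Sox18 and Ednrb. Cdkn1a, which encodes the cell cycle inhibitor p21, had 20 and 29 FPKM in Epi, 17.5 and 9.35 in Fb, 6.29 and 4.13 in Pc, and 703 and 367 in DC. Sox18, a transcription factor, was under 4 FPKM in Epi, Fb and Pc and had 1312.6 and 346 in DC. Ednrb, an endothelin receptor, had 2.35 and 2.45 FPKM in Pc and 51.2 and 75.8 in DC, against 7.68 and 13.6 in Epi and 0.932 and 2.23 in Fb. All 3 were higher in both DC libraries than in any Epi, Fb or Pc library. They were picked by the size of their gap in these same libraries, so this separation is no added support. Agtr2, with a negative value, was read in Fb (296 and 563 FPKM) and low in Epi (2.43 and 6.2), Pc (3.48 and 4.68) and DC (5.4 and 10.1), with a difference of differences of -5.62 (SE 0.688, limma adjusted p = 0.000218). Ptn, the growth factor pleiotrophin, was higher in Fb than in Epi (158 and 123 against 37.3 and 45.6) but had only 2.81 and 4.22 in DC, with 56.9 and 72.6 in Pc.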

How the data were processed

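RNA of sorted cells of mouse skin was sequenced in 16 libraries of 8 fractions, 2 each, from 6 ng of total RNA that was reverse transcribed and amplified, per the labels' protocols. The authors deposited 1 table of FPKM values, with no counts, so depth per library is unknown and no count test was run. Per the submitters' processing notes, TopHat2 2.0.3, Bowtie2 and Cufflinks 2.1.1 were used with mm10. FPKM depends on the other genes of a library, so a few abundant genes lower the rest.

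Values were moved to log2(FPKM + 1). The 14171 rows with at least 1 FPKM in 2 or more of 16 libraries were fitted in limma 3.58.1 (R 4.3.3) with 1 mean per fraction and trended, robust variances, and p-values were adjusted over all rows by the Benjamini-Hochberg method. The script was tested on simulated data. Calls needed an adjusted p under 0.05 and a log2 difference of at least 1. Counts of a list are over its expressed genes, many of which entered through the group where they are high, so they describe and do not test the list; 39 lists, 20 pairs and 16 marker sets were used. Members, lists and pairs were chosen with earlier results of these data known. Named genes are the markers, the 12 called genes of largest difference each way, listed genes, pair genes and the 6 genes of largest difference of differences each way; of these 12, 4 (Mir199b, Malat1, Snora21 and Snora17) were listed at 0 in both DC libraries and get no fold, which leaves 8. Rows that share a symbol were tested and not named.

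Same-numbered libraries deviated together: all 28 correlations of their deviations from the group means were over 0.1 (0.148 to 0.656, and 0.454 for Epi with Fb). The main fit, which gave the values reported here, took no account of this. A fit with the replicate number as a block was run as an alternative. Other alternatives were a pseudocount of 0.1, no filter, the 4 libraries alone, plain limma, libraries set to the same total, quantile normalization and leaving out each library. Promoter sequences are from RefSeq. Some genes of the lists are counted in them and not reported here by name.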

Additional observations from a re-analysis of the deposited data

Results flagged for a closer look

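The difference between epidermis and fibroblasts departed from that between placode and dermal condensate for 650 genes in the positive direction and 1151 in the negative one. The 8 given here had the largest values each way, after genes listed at 0 in both DC libraries were set aside. By limma on the difference itself, their adjusted p-values were 5.01e-06 to 0.000218. They were picked by size in these same libraries, so these p-values are no added support. Values are log2 of (Epi - Fb) - (Pc - DC). Sox18 reached 8.02, Ly6d 7.6, Cdkn1a 7.24, Ednrb 6.39, Lynx1 5.57 and Sgip1 5.52. Agtr2 was at -5.62 and Ptn at -5.6. Ly6d, a keratinocyte surface protein, had 22.6 and 27.1 FPKM in Epi and 0.696 and 0.524 in Fb, but 4.54 and 1.85 in Pc and 59.9 and 36.9 in DC, so its direction turned. Lynx1, which modulates nicotinic receptors, had 189 and 113 FPKM in DC and at most 3.38 in the Epi, Fb and Pc libraries. Sgip1, an endocytic adaptor, had 95.7 and 149 FPKM in DC and at most 2.5 in those libraries.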

How the results depend on the processing

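Counts of genes higher in Epi (1467) ranged from 1120 to 1632 over 11 alternatives and those higher in Fb (1960) from 1719 to 2382. Leaving out a library gave 1205 to 1632 and 1719 to 1886. Genes within 1 log2 unit (3786) numbered 6189 with the replicate block and 2293 to 2671 with a library left out, where intervals are wider with fewer samples. The difference of differences (650 positive) was called for 1075 genes with the replicate block; without a library it was called for 436 to 604, Pc and DC libraries included, an alternative chosen after seeing the data. The block changed no other count by over 1.5 times. With 1 library left in a group, that library was assumed to vary like the others. Of 539 named or listed genes called, 441 were tested and called in all 11 alternatives, 84 lost the call in at least 1, and 14 were called wherever tested but missed the FPKM filter with a library left out; the cause of the lost calls was not tested. No value was reversed. FPKM gives no depth, so calls at low levels rest on few fragments of unknown number.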
